A study of Mus musculus with 4 samples.

Results

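The mitochondrial ribosomal protein genes were followed across 4 cultures of R1 mouse ESCs of the 129/Sv strain. All protein-coding genes whose mouse symbol begins with Mrpl or Mrps and a digit were taken, which gave 77 genes in the table of raw counts. Of these, 75 passed the authors' filter on low expression and are the members described here, among 15462 genes of the normalized table. They comprised 46 genes of the large subunit (Mrpl) and 29 genes of the small subunit (Mrps). Mitochondrial ribosomes translate the few proteins that mitochondrial DNA encodes, all of them subunits of the oxidative phosphorylation (OXPHOS) complexes. Their RNA comes from mitochondrial DNA, whereas every protein of the particle is encoded in the nucleus, made in the cytosol and imported. The large subunit holds the peptidyl transferase centre and the exit tunnel, and the small subunit holds the decoding site. Many of the proteins descend from the bacterial ribosome, and others exist only in mitochondria.

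WT cells and cells with Cripto (Tdgf1) knocked out (Cripto KO) were grown in medium with serum and LIF, which keeps them as ESCs. Cells of each genotype were also grown for 6 days in N2B27 with bFGF and 20 ng per ml of Activin A (F/A). The study used F/A to derive epiblast stem cells (EpiSCs) from ESCs. The 4 groups were therefore WT serum/LIF, WT F/A, Cripto KO serum/LIF and Cripto KO F/A, each with 1 RNA-seq library of total RNA. The study worked with independent Cripto KO clones, and the labels do not say which of them was sequenced. With 1 library per group there is no replicate error, so no test was made and every difference lies between single cultures. Intervals given with ratios cover counting error only.

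Raw counts on genes summed to between 15230856 and 17315442 per library. Tdgf1 had 18714 counts in WT serum/LIF, 1572 in WT F/A, 945 in Cripto KO serum/LIF and 86 in Cripto KO F/A, so its level was lower in the knockout in both media but not 0. In Cripto KO F/A, odd counts were found in only 0.0160% of genes with counts, so its counts were divided by 2 for all intervals. It had 18700 genes with counts, against 20801 to 21377 in the other libraries. With the counts divided, its depth is lower than its total shows. The reason for the even counts was not tested. The summed level of 6 ESC markers (Pou5f1, Sox2, Nanog, Zfp42, Klf4 and Esrrb) was 5427 cpm (counts scaled to a common library total) in WT serum/LIF and 4893 in Cripto KO serum/LIF, against 185 and 144 in the F/A libraries. The paper follows Oct4 (Pou5f1) and Nanog as pluripotency genes in F/A cells too. Pou5f1 went from 26857 counts in WT serum/LIF to 1810 in WT F/A, and Nanog from 11633 to 259. Sox2 went from 12560 to 612. The lower sum in WT F/A thus includes these genes. The 8 EpiSC markers summed to 170 and 186 cpm in serum/LIF, 1272 in WT F/A and 655 in Cripto KO F/A. In Cripto KO F/A the Otx2 count was lower than in Cripto KO serum/LIF, the other 7 EpiSC markers were higher, and 4 markers of posterior mesoderm summed to 74.7 cpm, against 5.38 to 7.13 in the other libraries. The 5 fibroblast markers summed to 189 in Cripto KO F/A and to 66.2 to 95.4 elsewhere, and the 4 trophoblast markers to 1300 in WT F/A and 1544 in Cripto KO F/A against 5.31 and 5.72 in serum/LIF. The trophoblast sum came mostly from Krt8, with Elf5 at 0 to 2 counts, and Hand1 had 196 counts in WT F/A and 1730 in Cripto KO F/A. The 3 neural markers summed to 322 and 302 in F/A and to 88.2 and 98.7 in serum/LIF. Nes had 217 counts in WT serum/LIF, 4460 in WT F/A, 206 in Cripto KO serum/LIF and 4210 in Cripto KO F/A. Tubb3 went the other way, with 1189, 221, 1232 and 282 counts, and Pax6 was higher in F/A. From Cripto KO serum/LIF to Cripto KO F/A, Cdx1 (posterior mesoderm) went from 60 to 16 counts and Thy1 (fibroblast) from 349 to 28. The other 3 posterior mesoderm and other 4 fibroblast markers were higher there. The part of these cell mixtures in the levels below was not tested, and in RNA of whole cultures fewer cells of a type cannot be told apart from less RNA per cell.

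Counts on the 75 members made up 0.438% of all counts in WT serum/LIF (95% Wilson interval 0.435% to 0.441%). The share was 0.239% in WT F/A (0.237% to 0.242%), 0.390% in Cripto KO serum/LIF (0.387% to 0.393%) and 0.315% in Cripto KO F/A (0.311% to 0.319%). No intervals overlapped, and the order of the libraries was WT serum/LIF, Cripto KO serum/LIF, Cripto KO F/A and WT F/A, from high to low. From serum/LIF to F/A the share was multiplied by 0.546 in WT cells (95% interval 0.539 to 0.553) and by 0.807 in Cripto KO cells (0.795 to 0.819). Within F/A it was 1.32 times as high in Cripto KO as in WT cells (1.29 to 1.34), and within serum/LIF it was 0.890 times as high (0.880 to 0.899).

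**Figure D1:**
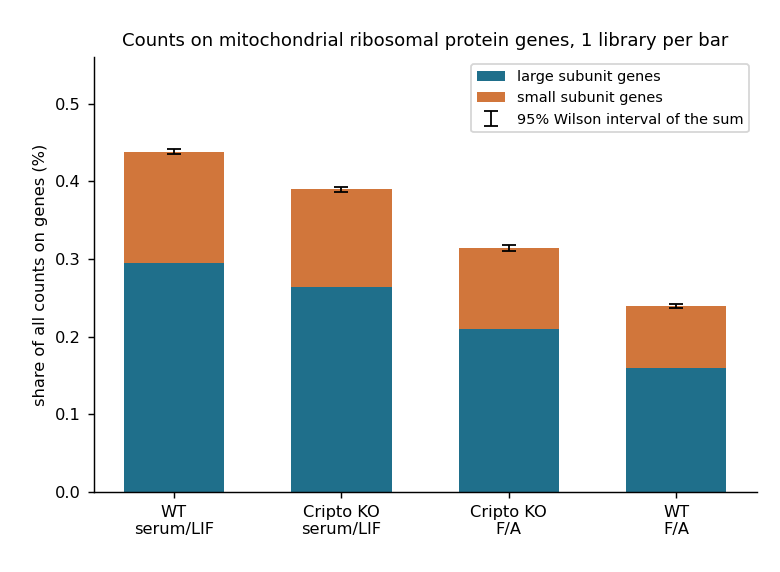
Share of all counts on genes (%) taken by large subunit and small subunit genes in each library, stacked, with the 95% Wilson interval of the sum. The sum runs from 0.438% in WT serum/LIF to 0.239% in WT F/A, and the large subunit takes between 66.5% and 67.9% of it in every library.

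Both subunits kept nearly the same part of this sum. Large subunit genes took 67.4% of the members' counts in WT serum/LIF, 66.5% in WT F/A, 67.9% in Cripto KO serum/LIF and 66.5% in Cripto KO F/A. Per kilobase of transcript the median large subunit gene had 65.1 cpm in WT serum/LIF, 37.3 in WT F/A, 59.1 in Cripto KO serum/LIF and 47.3 in Cripto KO F/A. The median small subunit gene had 44.5, 27.4, 36.9 and 38.5 cpm per kilobase in the same order of libraries. The median level per length was thus higher for the large subunit in all 4 libraries.

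Single members differed widely in level per length. Averaged over the libraries, Mrpl18, a protein of the central protuberance of the large subunit, had the highest value with 166 cpm per kilobase. It was followed by Mrps5, at the mRNA entrance of the small subunit, with 120, by Mrpl28 with 114 and by Mrps25, a small subunit protein found only in mitochondria, with 106. The lowest were Mrpl35 with 8.46 and Mrpl1, the protein of the L1 stalk, with 10.6. Mrpl35 and Mrpl1 had annotated transcripts with median lengths of 3715 and 3431 bases, against a median of 855 bases over the members, so their values per length depend on which transcript was made. For Mrps25, 53.7% of the exonic bases are shared with Nr2c2 on the opposite strand, and the strand setting of the counting is not given in the sources used here.

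In WT cells the normalized values of 73 of the 75 members were lower in F/A than in the ESC medium, and the median log2 change was −0.86. The median over all genes tested was −0.07, and 52.5% of all genes were lower at any fold. A decrease of at least 2-fold, which counts as a call here, was reached by 27 members (36.0%), against 20.9% of all genes. No member was at least 2-fold higher, against 22.1% of all genes. For 71 members the 95% interval of the ratio lay below 1, for Mrpl48 it lay above 1, and for 3 it included 1.

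The largest decrease belonged to Mrps24, the small subunit counterpart of bacterial S3 (ENSMUSG00000020477, chr11:5603986-5615683 of NCBIM37, minus strand). It had 1051 raw counts in WT serum/LIF, 184 in WT F/A, 651 in Cripto KO serum/LIF and 332 in Cripto KO F/A. Both F/A libraries were below both serum/LIF libraries, with WT F/A the lowest. Of the exonic bases of Mrps24, 15.4% are shared with Urgcp on the same strand. The normalized value was 5.37-fold lower in WT F/A than in WT serum/LIF (log2 change −2.43, interval of the ratio 0.169 to 0.233) and 2.02-fold lower in Cripto KO (log2 change −1.01, 0.442 to 0.626). Mrpl15, of the large subunit (ENSMUSG00000033845, chr1:4763287-4775820 of NCBIM37, minus strand), had 3555, 678, 2938 and 1224 counts in WT serum/LIF, WT F/A, Cripto KO serum/LIF and Cripto KO F/A. It was the member with the most counts in both serum/LIF libraries. Its log2 change was −2.27 in WT (ratio 0.199 to 0.235) and −1.24 in Cripto KO (ratio 0.394 to 0.470).

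The next decreases in WT cells also belonged to large subunit proteins with a bacterial counterpart. Mrpl34 had 692 counts in WT serum/LIF and 170 in WT F/A, with 467 and 220 in the Cripto KO libraries of the same media, and log2 changes of −1.93 in WT and −1.13 in Cripto KO. Mrpl17 had 2469 and 666 counts in the WT libraries and 1950 and 1106 in the Cripto KO libraries, with log2 changes of −1.80 and −0.80. Mrpl4, whose bacterial counterpart lines the exit tunnel, had 1548 and 423 counts in WT and 1274 and 608 in Cripto KO, with log2 changes of −1.76 and −1.10. All 5 of these genes had their highest count in WT serum/LIF and their lowest in WT F/A. At the 2-fold threshold, Mrpl32 lay just inside with a log2 change of −1.01 and Mrpl52 just outside with −0.98, a difference smaller than the counting interval of either gene.

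At the other end of the range stood 3 large subunit genes. Mrpl48, a protein found only in mitochondria, had 837 counts in WT serum/LIF, 872 in WT F/A, 730 in Cripto KO serum/LIF and 1064 in Cripto KO F/A, and its log2 change was 0.14 in WT (interval of the ratio 1.08 to 1.30) and 0.51 in Cripto KO. Mrpl23, whose bacterial counterpart sits at the tunnel exit, had 364, 342, 307 and 512 counts, with log2 changes of 0.05 in WT (0.919 to 1.24) and 0.66 in Cripto KO (1.45 to 2.04). Both genes had their highest value in Cripto KO F/A. They were the only members with a normalized value above that of serum/LIF in both genotypes. Mrpl41, also found only in mitochondria, had 224, 186, 227 and 266 counts and a log2 change of −0.13 in WT, whose interval included 1 (0.773 to 1.15) and whose sign turned to 0.16 after subtraction of the running median over transcript length. A part of the exonic bases of Mrpl48 (41.9%) is shared with other annotated genes, among them Rab6.

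**Figure D2:**
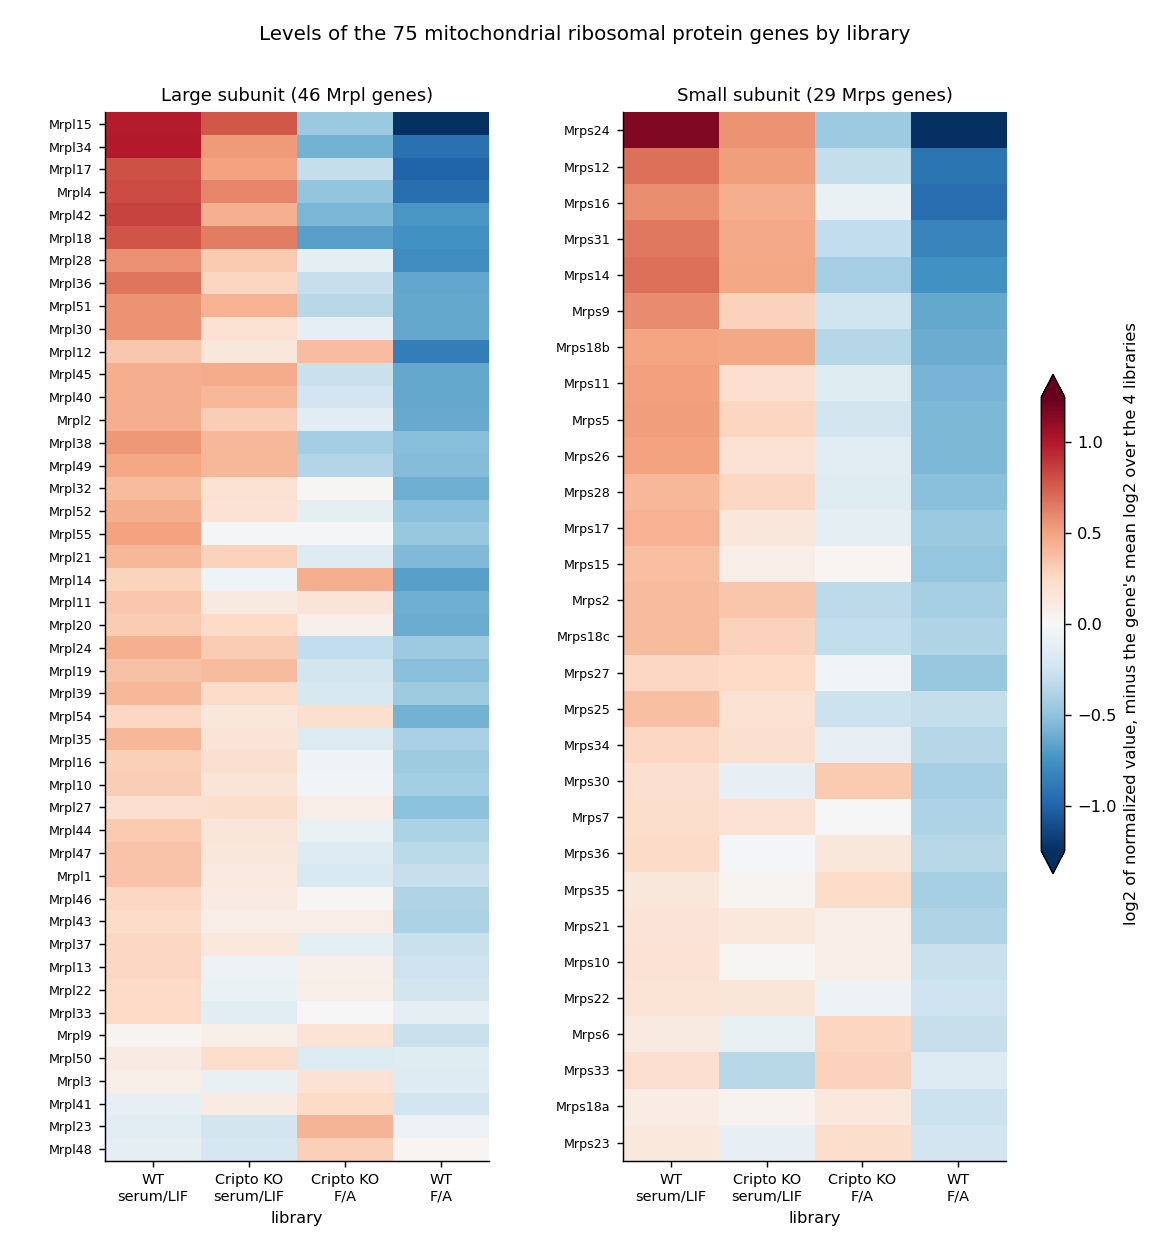
Heat map of the 75 members, with the log2 normalized value of each gene minus its mean over the 4 libraries (colour), genes ordered by the log2 change in WT cells and libraries ordered from WT serum/LIF to WT F/A. WT serum/LIF is the highest library for 58 members and WT F/A the lowest for 70, and Mrpl23 and Mrpl48 are highest in Cripto KO F/A.

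Promoter windows, from 250 bases before to 50 bases after a transcription start, were read from RefSeq on GRCm38.p6 and matched by symbol for 66 of the 75 members, in 72 windows. They were searched on both strands for the letters of 3 elements known from promoters of nuclear genes for mitochondrial proteins, namely CGCATGCG for NRF1 (the same on both strands), CCGGAAG for ETS factors such as GABPA, and AAGATGGC for YY1. At least 1 of them was present in 35 of the 72 windows of members (48.6%) and in 12.6% of all 32851 windows. The ETS letters were in 31.9% of the members' windows and 8.86% of all windows, the YY1 letters in 16.7% and 2.75%, and the NRF1 letters in 9.72% and 1.87%. The windows of members had a median of 58.2% G and C, against 52.7% for all windows. The 35 members with any of the letters had a median log2 change of −0.82 in WT cells, and the 31 without had −0.90.

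Promoter windows are printed for members with a large decrease in WT cells (Mrps24 and Mrpl34), for the 3 members at the other end of the range (Mrpl41, Mrpl23 and Mrpl48), and for the members that were at least 2-fold higher in Cripto KO F/A than in WT F/A (Mrpl12 and Mrpl14), so that they can be read side by side. Capitals mark the letters searched, with AAGATGGC in Mrps24, CCGGAAG in Mrpl34 and its reverse complement CTTCCGG in Mrpl48, and the other windows printed hold none of them. Mrpl48 has 4 windows, of which the 1 with these letters is printed and the other 3 hold none. At the upper end of the range the letters searched were thus found only in 1 of the 4 windows of Mrpl48. A gene with more windows has more places for a match. Mrpl15, whose log2 change of −2.27 in WT cells lay between those of Mrps24 and Mrpl34, had no matched window. The printed windows therefore leave out 1 of the members with the largest decreases. On GRCm38.p6 the windows lie at chr11:5707652-5707951 (minus strand), chr8:71464676-71464975 (plus strand), chr2:24975049-24975348 (minus strand), chr7:142532782-142533081 (plus strand), chr7:100583081-100583380 (minus strand), chr11:120484387-120484686 (plus strand) and chr17:45686099-45686398 (plus strand), and are written from 5′ to 3′ on the strand of the gene.
Mrps24: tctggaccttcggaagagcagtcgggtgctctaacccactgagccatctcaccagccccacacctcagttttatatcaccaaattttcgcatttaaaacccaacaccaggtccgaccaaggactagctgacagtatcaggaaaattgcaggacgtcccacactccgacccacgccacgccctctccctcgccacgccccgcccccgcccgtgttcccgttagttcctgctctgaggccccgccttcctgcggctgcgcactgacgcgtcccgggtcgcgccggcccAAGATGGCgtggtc
Mrpl34: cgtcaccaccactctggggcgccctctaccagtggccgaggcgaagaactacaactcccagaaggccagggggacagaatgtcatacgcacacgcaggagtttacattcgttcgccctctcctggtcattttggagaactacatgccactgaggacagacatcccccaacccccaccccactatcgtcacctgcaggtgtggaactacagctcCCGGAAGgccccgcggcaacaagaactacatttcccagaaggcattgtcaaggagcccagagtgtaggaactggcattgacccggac
Mrpl41: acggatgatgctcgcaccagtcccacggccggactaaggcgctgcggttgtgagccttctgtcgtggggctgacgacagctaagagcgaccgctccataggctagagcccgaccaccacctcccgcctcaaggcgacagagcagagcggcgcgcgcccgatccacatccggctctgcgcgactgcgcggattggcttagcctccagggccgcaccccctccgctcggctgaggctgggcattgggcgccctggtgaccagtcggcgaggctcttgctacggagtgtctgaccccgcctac
Mrpl23: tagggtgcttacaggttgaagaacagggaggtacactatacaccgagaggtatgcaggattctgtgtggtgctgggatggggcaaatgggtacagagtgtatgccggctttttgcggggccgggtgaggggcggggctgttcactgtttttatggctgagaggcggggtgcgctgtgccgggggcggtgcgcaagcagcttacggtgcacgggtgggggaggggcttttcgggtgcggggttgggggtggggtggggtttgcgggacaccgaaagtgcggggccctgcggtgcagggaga
Mrpl48: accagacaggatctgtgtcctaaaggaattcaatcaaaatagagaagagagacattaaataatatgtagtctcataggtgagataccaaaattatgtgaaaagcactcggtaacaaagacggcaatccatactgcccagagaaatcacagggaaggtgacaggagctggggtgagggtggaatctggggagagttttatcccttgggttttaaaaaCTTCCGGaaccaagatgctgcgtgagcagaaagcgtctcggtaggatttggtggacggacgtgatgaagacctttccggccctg
Mrpl12: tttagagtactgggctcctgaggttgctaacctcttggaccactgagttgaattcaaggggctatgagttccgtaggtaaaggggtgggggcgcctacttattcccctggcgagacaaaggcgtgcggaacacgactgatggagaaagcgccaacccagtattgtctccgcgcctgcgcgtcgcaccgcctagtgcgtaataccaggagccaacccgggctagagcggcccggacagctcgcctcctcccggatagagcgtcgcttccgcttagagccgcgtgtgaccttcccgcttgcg
Mrpl14: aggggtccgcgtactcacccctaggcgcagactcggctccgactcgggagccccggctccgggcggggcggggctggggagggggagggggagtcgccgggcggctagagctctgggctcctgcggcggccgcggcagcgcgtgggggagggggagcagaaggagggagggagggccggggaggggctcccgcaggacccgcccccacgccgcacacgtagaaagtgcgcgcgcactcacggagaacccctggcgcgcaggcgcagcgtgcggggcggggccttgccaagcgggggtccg

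In Cripto KO cells the normalized values of 54 of the 75 members were lower in F/A than in the ESC medium and those of 21 were higher, and the median log2 change was −0.30. With library totals, TMM factors or DESeq2 size factors 50 were lower. The median over all genes was −0.07, with 52.8% of them lower at any fold. A decrease of at least 2-fold was reached by 6 members, against 19.4% of all genes. No member was at least 2-fold higher, against 19.9% of all genes. The interval of the ratio lay below 1 for 37 members, above 1 for 14, and included 1 for 24.

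All 6 members called in Cripto KO cells were also called in WT cells, and 21 were called in WT cells alone. They were Mrpl18, Mrpl15, Mrpl34, Mrpl4, Mrps24 and Mrpl42, 5 of them large subunit genes. Mrpl18 had 1884 counts in WT serum/LIF, 604 in WT F/A, 1641 in Cripto KO serum/LIF and 658 in Cripto KO F/A. Its log2 change was −1.55 in WT and −1.32 in Cripto KO, and the F/A libraries of the 2 genotypes differed by less than their counting interval (ratio 0.919 to 1.21). Mrpl42, a protein found only in mitochondria, had 1820, 571, 1312 and 660 counts in the same order of libraries, with log2 changes of −1.57 and −1.01. With TMM factors in place of quantile normalization, 3 members were at least 2-fold lower in Cripto KO cells, and the same count was reached after subtraction of the running median over length.

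**Figure D3:**
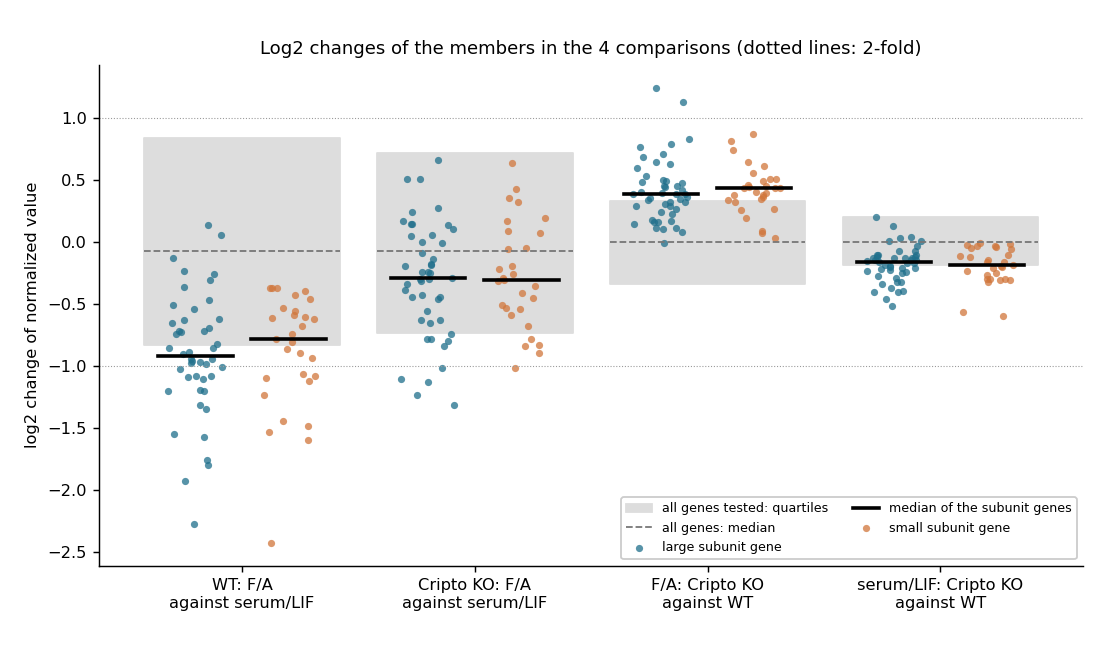
Log2 change of the normalized value (vertical axis) for each large subunit gene and small subunit gene in the 4 comparisons, with the median of each subunit (black bar) and the quartiles and median of all 15462 genes (grey band and dashed line). The medians of the subunits lie at −0.92 and −0.78 in WT cells, −0.29 and −0.30 in Cripto KO cells, 0.39 and 0.43 within F/A, and −0.16 and −0.18 within serum/LIF.

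The log2 change between the media was higher in Cripto KO than in WT cells for 74 of the 75 members. Of these, 53 had a decrease in each genotype that was smaller in Cripto KO cells, 19 were lower in WT and higher in Cripto KO cells, and 2 were higher in both. The members had a median difference of the log2 changes (Cripto KO minus WT) of 0.56. Among all genes this difference was above 0 for 49.9%, with a median of −0.0014. It was at least 1 for 6 of the 75 members and for 7.68% of all genes, so large differences were about as frequent among the members as among all genes. The 2 transitions share no library. The WT transition, the comparison within F/A and the difference of the transitions all use the single WT F/A library, the lowest for 70 members. For each gene this difference also equals the log2 difference within F/A minus that within serum/LIF. These values are therefore not separate results. Across the 75 members the log2 changes in WT and in Cripto KO cells had a Pearson correlation of 0.80 and a Spearman correlation of 0.78, given as a description of genes that share their libraries and their range of lengths. The members low on the scale in WT were thus also low in Cripto KO cells, at a shifted level. The exception was Mrpl50, a large subunit protein found only in mitochondria, with 816 counts in WT serum/LIF, 643 in WT F/A, 839 in Cripto KO serum/LIF and 654 in Cripto KO F/A. Its log2 changes were −0.25 in WT and −0.39 in Cripto KO, and the interval of its ratio was 0.807 to 0.995 in WT and 0.706 to 0.916 in Cripto KO, so the intervals overlapped. The next smallest differences were 0.13 for Mrps2, 0.19 for Mrps18c and 0.22 for Mrps22 and Mrps25, all of the small subunit. After subtraction of the running median over length, the difference was −0.09 for Mrps18c, −0.03 for Mrps25 and −0.0057 for Mrpl18, and 71 members remained above 0.

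**Figure D4:**
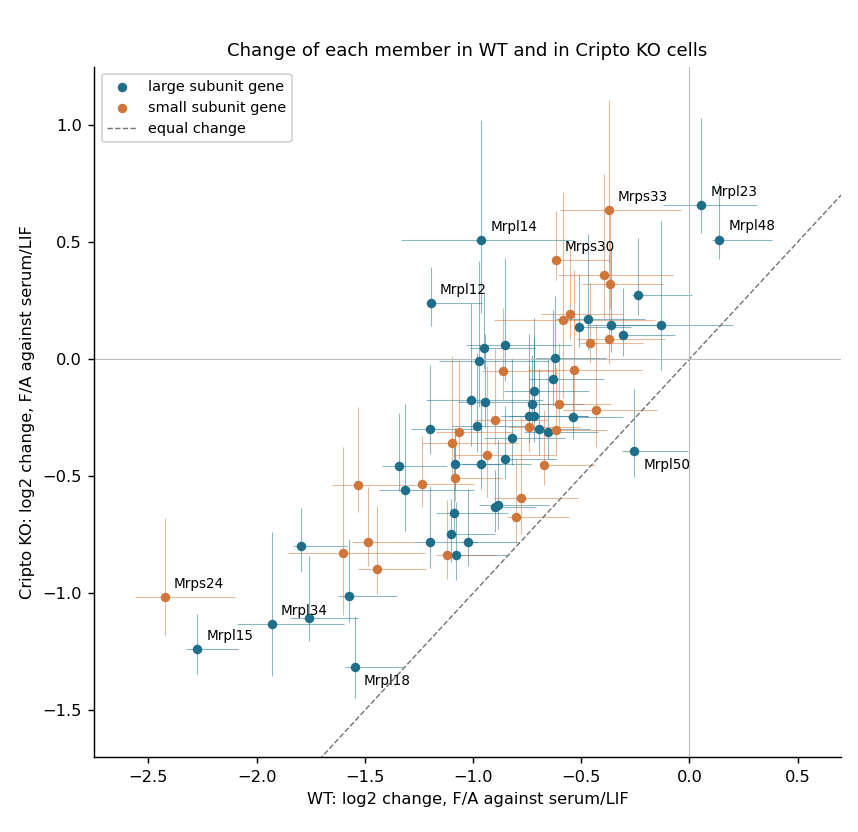
Log2 change between the media (F/A over serum/LIF) of each member in WT cells (horizontal axis) and in Cripto KO cells (vertical axis), with 95% counting intervals from raw counts scaled by library totals as thin lines. All members except Mrpl50 lie above the dashed line of equal change, and Mrpl12 and Mrpl14 lie farthest above it.

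For 19 members the normalized value was lower in WT F/A but higher in Cripto KO F/A than in serum/LIF, and for 11 of them the counting intervals lay on opposite sides of 1. Mrpl12, the stalk protein that recruits translation factors and is also known to bind the mitochondrial RNA polymerase (ENSMUSG00000039640, chr11:120345927-120350379 of NCBIM37, plus strand), had 1676 counts in WT serum/LIF, 694 in WT F/A, 1409 in Cripto KO serum/LIF and 1642 in Cripto KO F/A. Only its WT F/A library was low. The log2 change was −1.19 in WT (interval of the ratio 0.430 to 0.515) and 0.24 in Cripto KO (1.10 to 1.31). Mrpl14, at the interface between the subunits (ENSMUSG00000023939, chr17:45823271-45835444 of NCBIM37, plus strand), had 171, 79, 119 and 176 counts in the same order of libraries, with log2 changes of −0.96 in WT (0.397 to 0.690) and 0.51 in Cripto KO (1.15 to 2.03). Both genes had a WT F/A count well below those of the other 3 libraries. Exonic bases are shared with a gene on the opposite strand for 13.1% of Mrpl12 (Gm16755) and 11.2% of Mrpl14 (Tmem63b). The small subunit gene Mrps33 had 258, 182, 155 and 254 counts, and log2 changes of −0.37 and 0.64. Its serum/LIF libraries differed as well, with a ratio of Cripto KO to WT of 0.677 (0.521 to 0.784). After subtraction of the running median over length the change of Mrps33 in WT cells turned to 0.14.

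Within F/A, 74 of the 75 members had a higher normalized value in Cripto KO than in WT cells, with a median log2 difference of 0.39. Among all genes 50% were higher at any fold, with a median of 0. The interval of the ratio lay above 1 for 59 members and below 1 for none. Only Mrpl12 and Mrpl14 were at least 2-fold higher (2.67% of the members), against 4.57% of all genes, and no member was at least 2-fold lower, against 5.69% of all genes. The difference within F/A was thus of small size in nearly all members. Mrpl12 was 2.37-fold higher (interval 2.07 to 2.54), Mrpl14 2.19-fold (1.57 to 2.96) and Mrps16 1.83-fold (1.52 to 2.21), from 236 counts in WT F/A and 448 in Cripto KO F/A. The smallest log2 differences were −0.01 for Mrpl50, 0.04 for Mrps25, 0.07 for Mrps18c, 0.08 for Mrpl18 and 0.09 for Mrps2, all with intervals that included 1. Mrpl50 turned to 0.01 with TMM factors, and Mrps25, Mrps18c and Mrpl18 turned negative, to −0.09, −0.10 and −0.08, after subtraction of the running median over length.

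Within serum/LIF, 69 of the 75 members were lower in normalized value in Cripto KO than in WT cells, against 48.9% of all genes at any fold, with a median log2 difference of −0.17. None was at least 2-fold lower, against 2.73% of all genes, and none at least 2-fold higher, against 2.86%. The interval lay below 1 for 46 members and above 1 for none. The largest difference belonged to Mrps24 with −0.60, from 1051 to 651 counts, followed by Mrps33 with −0.56, Mrpl55 with −0.51, Mrpl34 with −0.46 and Mrpl36 with −0.40. The highest were Mrpl41 with 0.20, Mrpl50 with 0.13 and Mrpl9 with 0.04, whose intervals of the ratio were 0.893 to 1.30, 0.993 to 1.21 and 0.959 to 1.13.

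Across the 4 libraries, 58 members had their highest normalized value in WT serum/LIF and 70 their lowest in WT F/A. Both held for 57 of the 75 members, and for 2624 of the 15462 genes tested. Over all genes, 28.1% had their highest value in WT serum/LIF and 30.4% their lowest in WT F/A. The full order WT serum/LIF, Cripto KO serum/LIF, Cripto KO F/A, WT F/A, from high to low, held for 50 members and for 2172 of all genes. In 13 members (17.3%) Cripto KO F/A was the highest library, as in 23.7% of all genes.

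The subunits were compared by their medians, since genes of 1 library are not replicates. In WT cells the median log2 change was −0.92 over the 46 large subunit genes and −0.78 over the 29 small subunit genes, a difference of −0.14. A decrease of at least 2-fold was reached by 17 large subunit genes (37.0%) and 10 small subunit genes (34.5%), against 20.9% of all genes. In Cripto KO cells the medians were −0.29 and −0.30, within F/A 0.39 and 0.43, and within serum/LIF −0.16 and −0.18. The differences between the subunits were 0.01, −0.04 and 0.02 in these comparisons. For scale, a single member's interval reached a median of 0.163 to each side on the log2 scale in WT cells, and the log2 changes had a standard deviation of 0.50 among large and 0.48 among small subunit genes. As shares of all counts, the large subunit was multiplied by 0.538 (0.530 to 0.547) and the small by 0.561 (0.549 to 0.573) in WT cells, and by 0.791 (0.777 to 0.805) and 0.841 (0.819 to 0.862) in Cripto KO cells. These intervals did not overlap in either genotype, and the ratio of the large subunit was the lower one by a small margin. Such sums weigh each gene by its counts. Mrpl15 alone held 3555 of the 51139 large subunit counts in WT serum/LIF and 678 of 24216 in WT F/A. The ratio without Mrpl15 was not computed, so the margin cannot be read as shared by the genes of the subunit. Within F/A the ratios of Cripto KO to WT were 1.32 for the large subunit (1.29 to 1.34) and 1.31 for the small one (1.28 to 1.35).

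Some names do not match the place of the protein in the human particle. Mrps30 and Mrps18a belong to the large subunit there, and Mrps36 is known as a part of the oxoglutarate dehydrogenase complex. With these genes placed accordingly, the difference between the subunit medians in WT cells was −0.06. Mrps30 had 1224 counts in WT serum/LIF, 759 in WT F/A, 942 in Cripto KO serum/LIF and 1278 in Cripto KO F/A, and log2 changes of −0.62 in WT and 0.43 in Cripto KO. Mrps18a, Mrps18b and Mrps18c are 3 mitochondrial relatives of bacterial S18, and Mrps18c takes its place in the small subunit. Their log2 changes in WT cells were −0.37, −1.12 and −0.78, and in Cripto KO cells 0.09, −0.83 and −0.59. In Cripto KO cells the intervals of the ratios of Mrps18b and Mrps18c lay below 1, and that of Mrps18a included 1 (0.985 to 1.36). Mrps36 had 164, 100, 121 and 142 counts and log2 changes of −0.58 and 0.17, with an interval that included 1 in Cripto KO cells.

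The 46 members with a bacterial counterpart had a median log2 change of −0.94 in WT cells, and the 28 members found only in mitochondria had −0.70. A decrease of at least 2-fold was reached by 18 of the first (39.1%) and 9 of the second (32.1%), against 20.9% of all genes. In Cripto KO cells the medians were −0.31 and −0.29, so the difference of the transitions had medians of 0.64 and 0.44. In the small subunit the medians in WT cells were −0.92 for 16 genes with a bacterial counterpart and −0.62 for 12 without, and in the large subunit −0.95 for 30 and −0.85 for 16. Mrps18a and Mrps18b, though relatives of bacterial S18, were counted as found only in mitochondria, and Mrps36 was in neither class.

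Log2 changes in these libraries followed transcript length over all genes, and the members are short. Their median transcript length was 855 bases, against 1787 for all genes tested. The 773 genes whose length and mean normalized value both fell in the quartile ranges of the members (656 to 1233 bases) had log2 medians of −0.34 for WT and −0.15 for Cripto KO cells, of 0.18 within F/A and −0.05 within serum/LIF, and a difference of the transitions of 0.21. Of these genes 17.9% were at least 2-fold lower in WT and 11.5% in Cripto KO cells. After subtraction of the running median over length, the members had medians of −0.62 in WT, −0.22 in Cripto KO, 0.27 within F/A and −0.15 within serum/LIF, and 16 members (21.3%) were at least 2-fold lower in WT cells, against 18.8% of all genes adjusted in the same way. The share of the members at this threshold was then near that of all genes, whereas before the adjustment it was 36.0% against 20.9%. Of the genes of like length and level 10.1% were 2-fold lower after the adjustment. In Cripto KO cells 3 members were 2-fold lower after the adjustment, against 18.5% of all genes. A part of the members' change thus moved with length, and their medians stayed farther from 0 than those of genes of like length and level in all 4 comparisons. Among the members themselves length and log2 change in WT cells were hardly related (Pearson 0.03 and Spearman 0.04 over 75 genes).

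**Figure D5:**
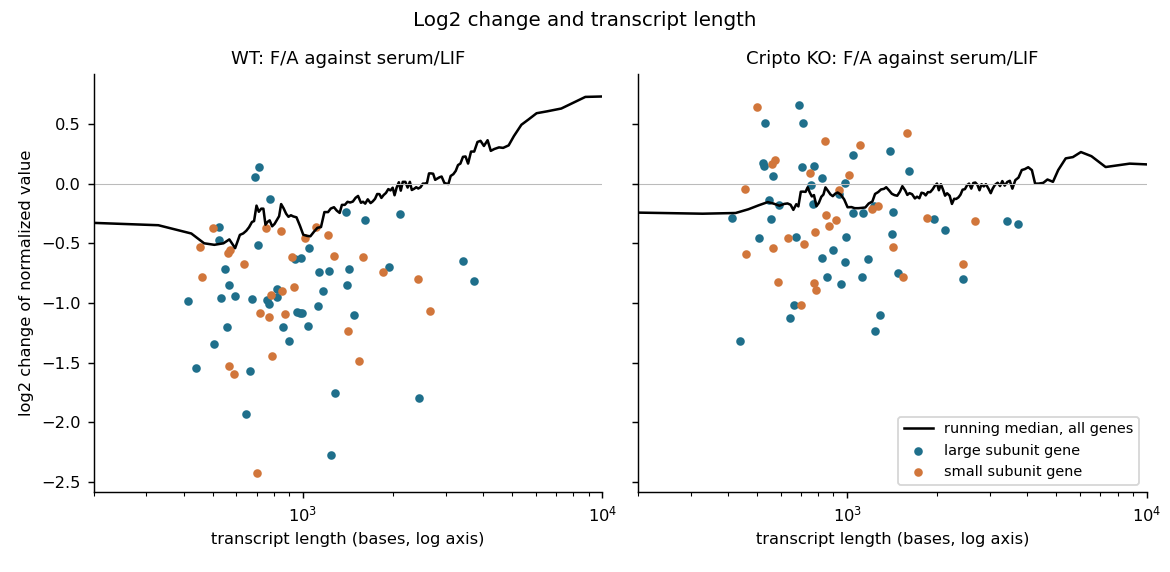
Log2 change between the media, F/A over serum/LIF (vertical axis) against transcript length in bases (log axis) for the members, in WT and in Cripto KO cells, with the running median over all genes (black line). Short genes lie below 0 on the running median in both panels, and in WT cells 68 of the 75 members lie below the line itself.

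The members lie on 17 chromosomes, with 10 of them on chromosome 11 and 8 on chromosome 17, so they form no single cluster. A protein-coding neighbour on the opposite strand starts within 1000 bases of 16 members (21.3%), against 9.98% of 13958 coding genes tested. The 16 had a median log2 change of −0.90 in WT cells and the other 59 had −0.86. Mrps12, whose bacterial counterpart guards decoding accuracy, lies 171 bases from Sars2, the mitochondrial seryl-tRNA synthetase, and both were lower in WT F/A, with log2 changes of −1.60 and −1.11. Mrpl40 lies 270 bases from Hira, a histone chaperone, and their log2 changes were −1.09 and 0.45. Mrpl49 lies 135 bases from Fau, which encodes a protein of the cytosolic ribosome, with −1.02 and −0.64 in WT and −0.78 and 0.23 in Cripto KO cells. Pairs with the same direction and pairs with opposite directions were thus both present. These pairs were chosen after their values were seen.

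Other genes of the same machinery were taken from lists. For scale, decreases of at least 2-fold were found in 20.9% of all genes in WT cells and 19.4% in Cripto KO cells. Increases of at least 2-fold were found in 22.1% and 19.9%. The 7 subunit genes of other names (Dap3, Ict1, Mrp63, Gadd45gip1, Chchd1, Aurkaip1 and Ptcd3) had log2 medians of −1.03 for WT and −0.21 for Cripto KO cells. Of them 4 (57.1%) and 1 (14.3%) were at least 2-fold lower. Gadd45gip1 had the lowest value in WT with −1.28, next to Dap3 with −1.21, and Ict1 with −0.77 and Chchd1 with −0.25 the highest. Of 14 assembly genes 4 (28.6%) were at least 2-fold lower and 1 at least 2-fold higher in WT cells. These genes had the same counts of calls in Cripto KO cells. Their medians were −0.83 (WT) and −0.45 (Cripto KO). The lowest were Mpv17l2, with 398 counts in WT serum/LIF and 77 in WT F/A (log2 change −2.24), and Tfb1m, the methyltransferase of the small ribosomal RNA (−1.61). Mterfd1 stood at the other end with 1.46, above Gtpbp10 with −0.13.

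Of 14 translation factor genes 3 (21.4%) were at least 2-fold lower in WT cells and none in Cripto KO cells, with medians of −0.66 and −0.47. The share in WT cells was near the 20.9% of all genes. Mtfmt, which formylates the initiator tRNA, had −1.39 and Tufm, the elongation factor, −1.20 in WT cells, and Mtrf1l with 0.04 and Guf1 with 0.23 were highest. Among 17 mitochondrial aminoacyl-tRNA synthetase genes 4 (23.5%) were at least 2-fold lower in each genotype, with medians of −0.69 and −0.61. These shares were near the 20.9% and 19.4% of all genes in WT and Cripto KO cells. Cars2 had −2.28 in WT cells, Wars2 had 0.61, and Lars2 stood apart with 2194 counts in WT serum/LIF, 15635 in WT F/A, 1890 in Cripto KO serum/LIF and 3008 in Cripto KO F/A (3.12 in WT and 0.74 in Cripto KO cells). The 8 genes for maintenance and transcription of mitochondrial DNA had medians of −0.11 and −0.21, from −1.71 for Polrmt and −0.80 for Mterf to 0.32 for Ssbp1 and 0.50 for Tfam in WT cells. The median differences between the transitions were 0.71 for the subunits of other names, 0.29 for assembly genes, 0.18 for translation factors, 0.11 for synthetases and 0.20 for the DNA genes, beside 0.56 for the members.

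Genes whose products act beside the members were described in the same way. The 12 mitochondrially encoded protein genes that passed the filter, which the mitochondrial ribosome translates, had log2 medians of −0.44 for WT and −0.43 for Cripto KO cells, with a median difference of −0.0026. In WT cells they ran from −1.37 for mt-Nd3 and −0.86 for mt-Co3 to −0.08 for mt-Atp8 and 0 for mt-Nd5. The 75 nuclear OXPHOS subunit genes had a median of −1.19 in WT and −0.40 in Cripto KO cells. Of them 50 (66.7%) and 8 (10.7%) were at least 2-fold lower, against 20.9% and 19.4% of all genes. Cox7a1 with −3.93 and Atp5g1 with −2.41 were lowest in WT cells, and Uqcrfs1 with −0.27 and Cox6b2 with −0.09 highest. The 77 cytosolic ribosomal protein genes had medians of −0.92 and −0.19, with 31 (40.3%) and 1 (1.3%) at least 2-fold lower. In WT cells Rps4y2 had −1.91, Rpl37a −1.76 and Rpl4 −0.23. A lower level in WT F/A with a smaller decrease in Cripto KO cells was therefore not particular to the mitochondrial ribosome. Pseudogene copies of ribosomal protein genes can take or lose reads, and their part was not tested.

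The 2 genes that did not pass the filter were Mrpl53 and Mrps36-ps1. Mrpl53 had 9 counts in WT serum/LIF, 14 in WT F/A, 7 in Cripto KO serum/LIF and 12 in Cripto KO F/A, and 87.1% of its exonic bases are shared with Ccdc142 on the same strand. Reads on bases of both genes are ambiguous to the counting program, so the level of Mrpl53 is uncertain. Mrps36-ps1, annotated as protein-coding but named as a pseudogene copy of Mrps36, had 0 counts in all 4 libraries.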

How the data were processed

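Paired-end reads from a HiSeq 2500 were mapped by the authors to mm9 (NCBIM37) using TopHat2 2.0.13. For each Ensembl 67 gene the authors deposited whole-number raw counts, obtained with htseq-count 0.6.1p1 in its intersection-nonempty mode. The authors also deposited a signal made from these counts, quantile-normalized by preprocessCore in RNASeqGUI 0.99.3 and then filtered by the proportion test of NOISeq 2.8.0 with a limit of 1 cpm. The option for strand and the library kit's strandedness are not given in the sources used here. All columns were matched to cultures by name, and 0 were left out.

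Symbols, biotypes, coordinates and transcript lengths came from an Ensembl 65 annotation of the same build, which named 98.9% of the raw table's genes and 99.8% of the normalized table's. A gene's length is the median of its annotated transcripts. Log2 changes were ratios of normalized values with 0 replaced by 0.5, and a fold of at least 2 counted as a call. For ratios of single genes, 95% Clopper-Pearson limits were taken from raw counts scaled by library totals, and for shares of counts 95% Wilson limits were used. PCR duplicates are not separate molecules, so both cover counting error only. Totals of 15230856 to 17315442 counts gave members 79 to 3555 counts per library, with Cripto KO F/A taken before the division by 2.

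Named members were, of those with at least 100 counts in the higher library, the 5 lowest and 3 highest in each comparison and in the difference of the transitions, all called members where at most 20 were called, the 4 highest and 2 lowest per length, those that failed the filter, those just inside and outside the threshold, and those whose name and place differ. The 2 lowest and 2 highest of each other list in WT cells were named too, except for some genes that are not reported here. The members and all lists were chosen with earlier results of these data known.

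Other settings were library totals, TMM factors (edgeR 4.0.16), DESeq2 1.42.0 size factors (both in R 4.3.3), an offset of 5, subtraction of a running median over the 501 genes nearest in length, no filter, a mean of at least 50 counts, folds of 1.5 and 3, other sets of members, and other denominators. Halving the Cripto KO F/A counts before normalization was added after seeing the data. Scripts in Python 3.11.15 (numpy 2.4.6, scipy 1.17.1, pandas 2.3.3, matplotlib 3.10.9) were tested on simulated data.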

Additional observations from a re-analysis of the deposited data

Results flagged for a closer look

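For 8 of the named members the log2 change between the media had opposite signs in WT and Cripto KO cells. Each rests on 1 library per group, and the difference was not tested. The difference of the log2 changes, Cripto KO minus WT, was 1.47 for Mrpl14, 1.44 for Mrpl12, 1.04 for Mrps30 and 1.01 for Mrps33. It was 0.753 for Mrps36, 0.455 for Mrps18a, 0.409 for Mrpl9 and 0.280 for Mrpl41. For Mrpl12, Mrpl14, Mrps30, Mrps33 and Mrpl9 the counting intervals of the ratios lay on opposite sides of 1 in the genotypes. For Mrps36, Mrps18a and Mrpl41 at least 1 of the intervals included 1.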

How the results depend on the processing

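Of 194 values recomputed under the alternatives, 171 stayed near the reported value. Some of the 171 could not move, since a mean of at least 50 counts kept all 75 members and returned the reported values. Differences between subunit medians near 0 were also counted among the 171 where their sign changed. No median over the members changed sign, and the difference between the subunit medians did so in both genotype comparisons. After subtraction of the running median over transcript length, the median log2 change in WT cells was −0.62, and the members at least 2-fold lower were 16 in WT (reported 27) and 3 in Cripto KO cells (reported 6), with 1 higher within F/A (reported 2). TMM factors also gave 3 in Cripto KO cells. At a fold of 1.5, 57 members were lower in WT cells, 20 lower and 2 higher in Cripto KO cells, 15 higher within F/A and 1 lower within serum/LIF. At a fold of 3 these were 6 lower in WT, 0 lower in Cripto KO cells and 0 higher within F/A. The share of all genes was not computed at either fold, so these counts show the effect of the threshold only. Without the filter, 1 member, Mrpl53, was at least 2-fold higher in WT and 1 in Cripto KO cells. Mrpl53 had few raw counts in every library, so these calls rest on quantile-normalized values near the floor. With only protein-coding nuclear genes as the denominator, the members' share was 0.463% in WT serum/LIF, 0.249% in WT F/A, 0.411% in Cripto KO serum/LIF and 0.328% in Cripto KO F/A. With the subunits of other names added it was 0.496%, 0.269%, 0.443% and 0.354%. The cause of these shifts was not tested, beyond what each setting changes by construction. The difference between the subunit medians kept its sign in WT and Cripto KO cells under all settings, from −0.15 to −0.06 and from 0.01 to 0.09, and changed sign after the length adjustment within F/A (to 0.01, range −0.05 to 0.01) and within serum/LIF (to −0.01, range −0.01 to 0.03), and also within serum/LIF with the subunits of other names added (to −0.0022). The number of members lower in WT F/A was 73 under every scaling and 68 after the length adjustment.

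No paired analysis was possible because each group has 1 library, and for the same reason no replicate was left out. Depth limits single members: the counting interval of a ratio reached a median of 0.163 to each side on the log2 scale in WT cells and 0.212 within F/A, so smaller differences between members are not resolved.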

Other observations

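Beside the proteins, the RNA of the mitochondrial ribosome was present in the table of raw counts. The gene of the small ribosomal RNA, mt-Rnr1, had 2053 counts in WT serum/LIF, 1038 in WT F/A, 2221 in Cripto KO serum/LIF and 590 in Cripto KO F/A. The gene of the large one, mt-Rnr2, had 2867, 2838, 2875 and 1638 counts in the same order. Scaled to library totals, mt-Rnr1 had 119, 68.2, 137 and 37.5 cpm and mt-Rnr2 had 166, 186, 177 and 104. Both were lowest in Cripto KO F/A, the library whose protein genes lay above those of WT F/A. Counts of ribosomal RNA depend on how a library was made, and each value rests on 1 library. The part of library preparation was not tested.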
